A study of Mus musculus with 15 samples.

Results

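Oxidative phosphorylation is carried out by the enzyme complexes of the inner mitochondrial membrane, and the 92 nuclear genes described here encode their subunits and a few of their assembly factors. The genes were chosen by name: protein-coding genes in the GENCODE M21 annotation whose symbols begin with Nduf, Uqcr, Atp5 or Cox followed by a digit from 4 to 8, together with Sdha, Sdhb, Sdhc, Sdhd and Cyc1. Of 55536 genes in the count table, 95 matched and 92 held 10 or more reads in 3 or more samples, and all 92 entered the test. The genes below that limit were Cox8b, Cox8c and a second Atp5o entry. By complex, the set held 36 genes of complex I, 8 assembly factors of complex I named Ndufaf, 4 genes of complex II, 9 of complex III, 18 of complex IV and 17 of complex V. Ndufa4 and its paralog Ndufa4l2 were placed with complex IV. Cox7a2l, which joins complexes into supercomplexes, and Atp5s, a coupling factor-like gene, entered through their symbols and are not subunits in the strict sense. The genes lay on 19 chromosomes, with 3 of them (Ndufa1, Ndufb11 and Cox7b) on the X chromosome.

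Complex I takes electrons from NADH and complex II takes them from succinate, complex III passes them from ubiquinol to cytochrome c, and complex IV hands them to oxygen. The proton gradient that complexes I, III and IV build drives complex V, the ATP synthase. Complex II is encoded wholly in the nucleus, each of the other complexes has 1 or more subunits encoded in mitochondrial DNA, and several nuclear subunits exist as paralogs whose use differs between tissues. Naive mouse embryonic stem cells are known to use both respiration and glycolysis.

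Bulk RNA was sequenced from 5 stages of a mouse differentiation course, with 3 replicates a stage. Naive embryonic stem cells (ESCs) were grown in 2i plus LIF, and epiblast-like cells (EpiLCs) were made from them in 48 hours of Activin A, bFGF and knockout serum replacement. PGCLCs, cells like primordial germ cells, came from EpiLC aggregates given doxycycline in place of cytokines and were collected as Stella-eGFP+ cells on day 2 (D2PGCLCs), day 4 (D4PGCLCs) and day 6 (D6PGCLCs). Every group, the ESCs and EpiLCs included, carried the doxycycline-inducible transgenes Prdm1, Prdm14, Tfap2c and Nanog in a clonal line with a Stella-eGFP reporter, and doxycycline was given to the PGCLCs. The study worked with clonal lines, and the sources used here do not say whether the replicates were separate cultures, so p-values measure the spread between these samples, which may be technical. In bulk RNA, fewer cells of a type and less RNA per cell cannot be told apart.

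Libraries held 22555021 to 42725681 counted reads. Between 21103 and 24343 genes were detected in 14 of the 15 libraries, and 18061 in D6PGCLC replicate 1. Summed stage markers followed the labels: 5 naive markers summed to 1539 to 1595 CPM (read counts scaled to a common library total, a per-million unit) in ESCs, 4 EpiLC markers to 1824 to 1966 CPM in EpiLCs, and 5 PGCLC markers to 732 to 1210 CPM in PGCLCs against 79.0 to 128 CPM in the other stages. The naive sum was 196 to 218 CPM in EpiLCs and 580 to 641 CPM in PGCLCs. For the EpiLC markers it was 135 to 142.5 CPM in ESCs and 40.3 to 69.1 CPM in PGCLCs. Nr0b1, unlike the other 4 naive markers, was higher in PGCLCs than in ESCs. Its means were 60.2 CPM in ESCs and 113, 132 and 80.5 CPM on days 2, 4 and 6. Fibroblast markers (6 genes), a check for feeder cells, summed to 7.58 to 8.38 CPM in ESCs with 3 of them at 0, to 24.0 to 25.1 CPM in EpiLCs and to at most 2.19 CPM in PGCLCs with 1 of them at 0. Endoderm markers (5 genes) summed to 1.5 to 6.53 CPM in the other stages and to 9.51 to 18.02 CPM in D6PGCLCs. Mesoderm markers (4 genes) summed to 15.3 to 17.01 CPM in ESCs, to 0.96 to 4.49 CPM in EpiLCs, D2PGCLCs and D4PGCLCs, and to 10.6 to 15.96 CPM in D6PGCLCs. Neural markers (3 genes) summed to 2.7 to 4.12 CPM in ESCs, 11.05 to 15.8 CPM in EpiLCs, 3.58 to 5.43 CPM in D2PGCLCs, 7.47 to 10.5 CPM in D4PGCLCs and 6.23 to 10.4 CPM in D6PGCLCs. The part of these other cell types in the results was not tested.

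Summed over each complex, the nuclear transcripts had their lowest stage mean in EpiLCs for complexes I and IV. For complex III the EpiLC mean of 586 ± 60.2 and the D6PGCLC mean of 592 ± 62.5 (SD, n = 3) lay within their spread, and for complexes II and V the lowest mean was that of D6PGCLCs. The order for complexes II and V depended on the scaling between libraries. The normalization (TMM) factors were 0.933 to 0.939 in EpiLCs and 1.06 to 1.10 in D6PGCLCs. With library totals in place of this scaling, D6PGCLCs were not the lowest for either complex. Of 30 stage means of such sums, assembly factors included, 6 moved by at least their SD with library totals. These sums are in CPM divided by exon length in kilobases, so that long genes do not count more through their length, and they are given as values with no test. Genes of high level weigh most in them. In ESCs, Atp5b and Atp5a1 held 478 and 337 of the complex V sum of 1523, and Cox4i1 held 271 of the complex IV sum of 1001. The complex IV sum was 1094, 939 and 970.5 in the ESCs, 913, 694 and 887 in the EpiLCs, 1026, 1124 and 1149 in the D2PGCLCs, 922, 1100 and 1564 in the D4PGCLCs and 948, 1153 and 1349 in the D6PGCLCs. EpiLC replicate 2 was the lowest of all libraries and D4PGCLC replicate 3 the highest, and D4PGCLC replicate 1 lay below all 3 ESC libraries.

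**Figure D1:**
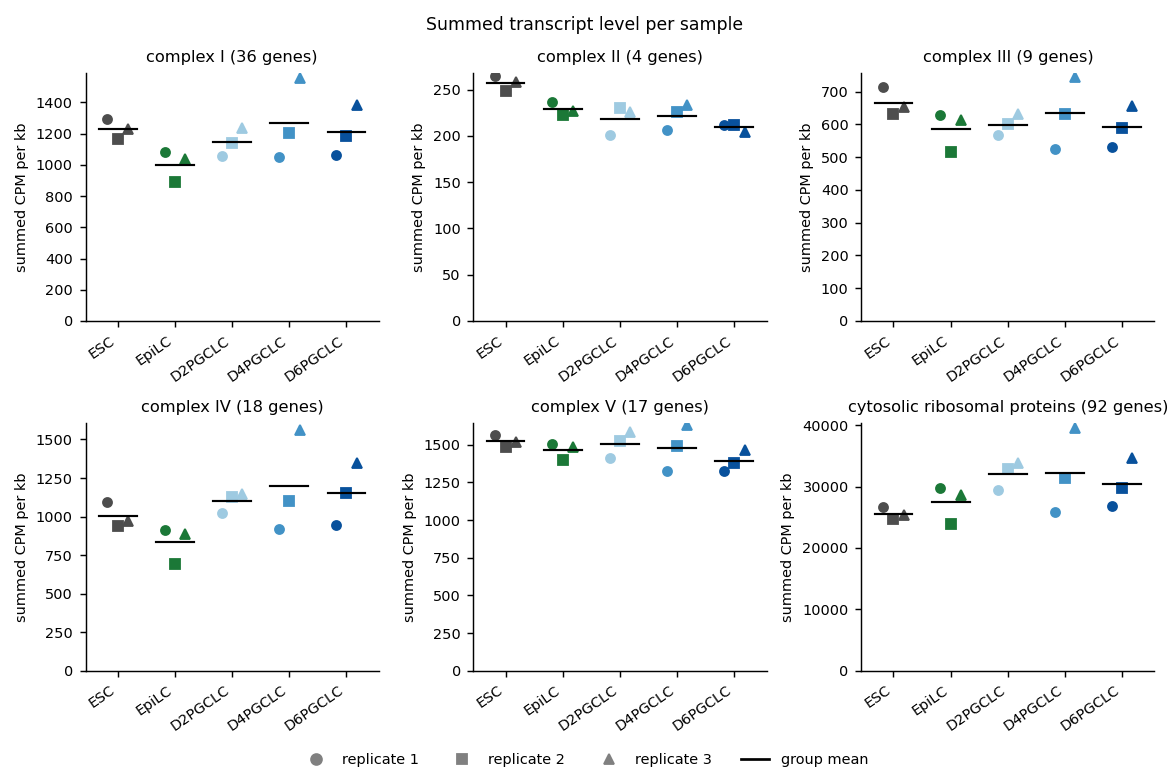
Summed transcript level in CPM per kb (vertical axis) for the genes of each complex and for 92 cytosolic ribosomal protein genes, by stage, with a point for each replicate and a line for the group mean. The complex IV mean was 1001 in ESCs and 832 in EpiLCs, and EpiLC replicate 2 and D4PGCLC replicate 3 lay at opposite ends of both the complex IV and the ribosomal panels.

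For complex I the mean sum went from 1230 ± 62.7 (SD, n = 3, as for the sums that follow) in ESCs to 1002 ± 101 in EpiLCs, and the PGCLC days held 1145 ± 92.3 (day 2), 1270 ± 258 (day 4) and 1212 ± 159.7 (day 6). Complex II went from 257 ± 7.96 in ESCs to 229 ± 7.47 in EpiLCs and 209 ± 4.38 in D6PGCLCs, a ratio of 0.814 of day 6 to ESC. Complex V held 1523 ± 39.9 in ESCs, 1464 ± 58.2 in EpiLCs and 1391 ± 69.7 in D6PGCLCs. Against the ESC mean, the EpiLC sum was thus 0.814 for complex I, 0.89 for complex II, 0.88 for complex III, 0.831 for complex IV and 0.961 for complex V. The spread within a stage was wide in places. Over all 92 genes, EpiLC replicate 2 summed to 3792 against 4449 and 4326 in replicates 1 and 3, and D4PGCLC replicate 3 to 5829 against 4111 and 4734. The sum of 92 cytosolic ribosomal protein genes moved alongside, at 23940 in EpiLC replicate 2 against 29830 and 28560 in replicates 1 and 3, and at 39600 in D4PGCLC replicate 3 against 25790 and 31370. Both lists hold short transcripts, with a median exon length of 1631 bases for the 92 respiratory genes and 1701.5 bases for the 92 ribosomal protein genes, against 3710.5 bases over all genes tested. The part of this difference between libraries in the results was not tested.

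From ESCs to EpiLCs, 32.6% of the respiratory genes fell, near the share of all genes, and 3.26% rose, well below it. In edgeR's quasi-likelihood test with Benjamini-Hochberg adjustment over 18090 genes, 30 of the 92 genes were lower in EpiLCs (adjusted p under 0.05), where 26.2% of all genes tested were lower, and 3 were higher, where 26.3% of all genes were. The median log2 fold change was -0.23 over the 92 genes and -0.01 over all genes. The genes that fell were 15 of 36 in complex I, 3 of 4 in complex II, 2 of 9 in complex III, 7 of 18 in complex IV and 3 of 17 in complex V, and the higher ones were Ndufaf2, Cox7a2l and Cox7b2. The count of lower genes was 18 without EpiLC replicate 2, and the count of higher genes was 6 when only these groups were fitted. The shares of all genes called in such alternative fits, here and below, are not given. A shift of a count can therefore not be called particular to the 92 genes. Over 89 tested cytosolic ribosomal protein genes the median was 0.12, with 8 higher and 1 lower.

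From EpiLCs to D2PGCLCs the calls ran the other way. Of the 92 genes, 30 were higher in D2PGCLCs, where 27.2% of all genes tested were, and 8 were lower, where 26.0% were. The median was 0.17 over the 92 genes and 0.00 over all genes. The 30 higher genes comprised 16 of complex I, 2 assembly factors, 2 of complex II, 1 of complex III, 6 of complex IV and 3 of complex V. Without EpiLC replicate 2 the count was 15, and with upper-quartile scaling, which moved the median of all genes to -0.10, it was 16 beside 12 lower. The cytosolic ribosomal protein genes had 21 higher and 3 lower with a median of 0.22. EpiLCs are in both of these comparisons, so their calls are not independent, and D2PGCLCs against ESCs shows the net of both steps. In that comparison 6 of the 92 genes were higher (25.6% of all genes tested) and 15 were lower (23.4% of all genes), and the median over the 92 genes was -0.04. The lower count was 9 without D2PGCLC replicate 1, and the higher count was 12 without D4PGCLC replicate 3, 15 with no filter on low counts and 17 when only these groups were fitted.

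**Figure D2:**
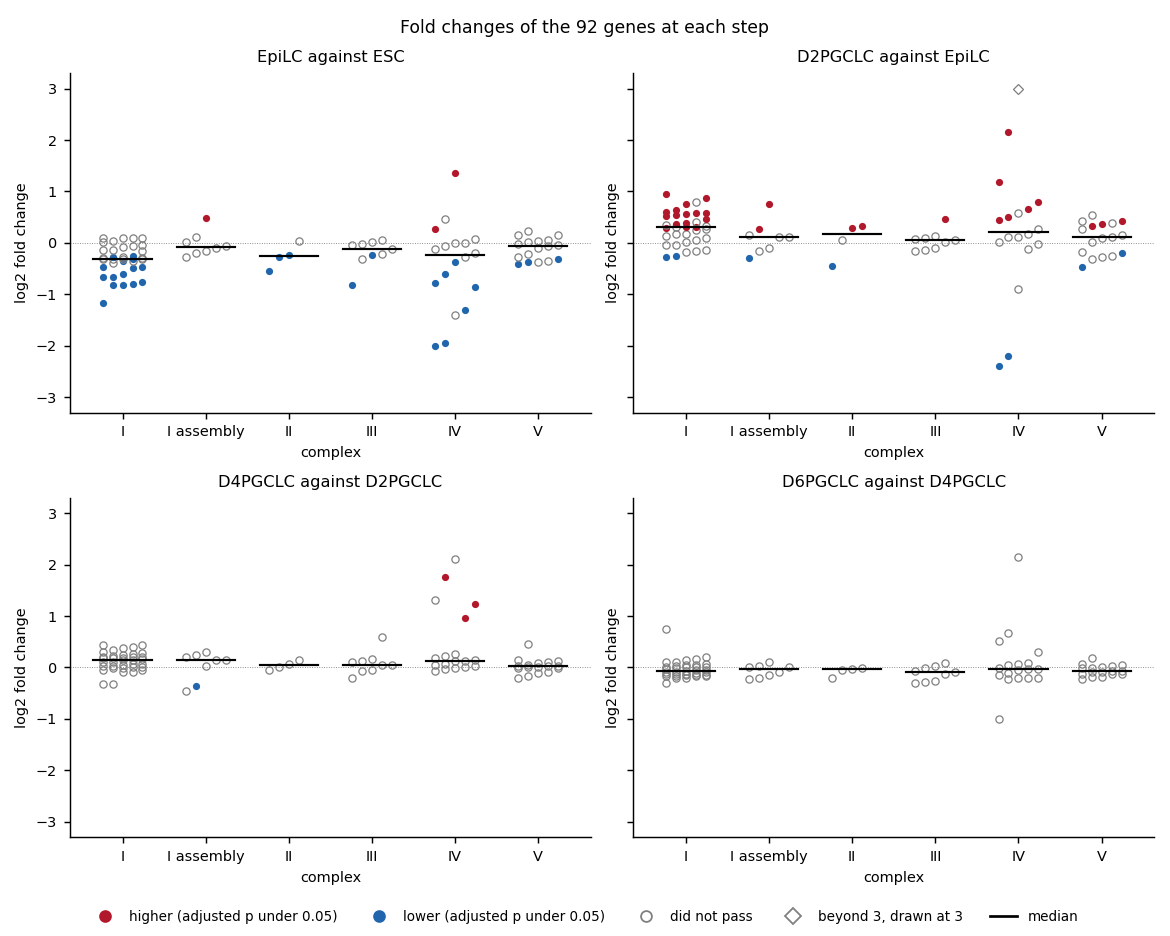
Log2 fold change (vertical axis) of each of the 92 genes at the 4 successive steps, by complex, with filled points for genes that passed an adjusted p of 0.05 and a line for the median of the complex. Complex I lay mostly below 0 in EpiLCs against ESCs (15 lower, 0 higher) and mostly above 0 in D2PGCLCs against EpiLCs (16 higher, 2 lower), and the later steps held few filled points.

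Among PGCLC days few respiratory genes changed. Between day 2 and day 4, 3 genes rose (7.26% of all genes tested were higher), all of complex IV: Cox6b2, Cox7b2 and Cox7a1. Only Ndufaf4 was called lower, where 4.6% of all genes were, and leaving out 1 library at a time lost that call in 11 of 15 fits. With the replicate number as a block, as same-numbered D2PGCLC and D4PGCLC libraries deviated together, 5 genes rose and 1 fell, the added ones being Uqcrq of complex III, at 0.56 ± 0.15 (SE, adjusted p = 0.019), and Ndufa13 of complex I, at 0.43 ± 0.11 (SE, adjusted p = 0.013). With no filter, 9 genes rose and 0 fell. From day 4 to day 6 edgeR called 0 higher and 0 lower of 92, against 6.03% and 6.82% of all genes. At an unadjusted p under 0.05 it gave 1 higher and 3 lower, and DESeq2 gave 0 after adjustment and 2 higher and 1 lower before it. With no filter edgeR called 3 lower, as it did without D4PGCLC replicate 1. Over the whole span from day 2 to day 6, 6 genes were higher (19.5% of all genes) and 7 lower (18.2%), and the lower count was 3 without D6PGCLC replicate 1. Upper-quartile scaling gave 9 higher and 4 lower, and no filter gave 12 higher.

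Against ESCs, the later PGCLCs showed respiratory genes in both directions. D4PGCLCs had 15 higher genes (26.9% of all genes tested) and 15 lower ones (23.9%), and D6PGCLCs had 15 higher (27.7%) and 19 lower (26.0%). The higher counts leaned on single libraries, being 7 without D4PGCLC replicate 3 and 26 without D4PGCLC replicate 1 at day 4, and 5 without D6PGCLC replicate 3 and 22 without D6PGCLC replicate 1 at day 6. The lower count at day 6 was 14 without D6PGCLC replicate 1. Against EpiLCs, D4PGCLCs had 39 higher genes (29.6% of all genes tested) and 7 lower ones (26.1%), and D6PGCLCs had 33 higher (30.2%) and 12 lower (27.2%). Those higher counts were 24 without D4PGCLC replicate 3 at day 4 and 22 without EpiLC replicate 2 at day 6. Mean levels give the order over the course: EpiLCs had the lowest mean of the 5 stages for 51 of the 92 genes, ESCs the highest for 29 and D4PGCLCs the highest for 27. The same counts over all genes tested are not given, so these cannot be set against them. The means also take in EpiLC replicate 2 and D4PGCLC replicate 3, the lowest and the highest library when all 92 genes are summed.

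Changes of more than 1 on the log2 scale were few among respiratory genes. Of the called genes, 1 was that much higher and 4 lower in EpiLCs than in ESCs (14.4% and 11.9% of all genes tested), and 2 higher and 2 lower in D2PGCLCs than in EpiLCs (11.0% and 14.4%). Between day 2 and day 4 there were 2 higher, Cox6b2 and Cox7b2, and 0 lower (2.56% and 0.376% of all genes), between day 4 and day 6 there were 0 and 0 (2.29% and 0.785%), and from day 2 to day 6 there were 4 and 0 (10.9% and 2.75%). Against ESCs the counts were 0 higher and 2 lower at day 2 (11.7% and 12.7% of all genes), 2 and 2 at day 4 (13.9% and 10.9%) and 3 and 1 at day 6 (15.8% and 10.3%). Against EpiLCs they were 6 and 0 at day 4 (14.0% and 12.8%) and 7 and 1 at day 6 (15.9% and 12.0%). The genes behind these counts were Cox4i2, Cox5a, Cox6a2, Cox6b2, Cox7a1, Cox7b2 and Ndufa4l2 of complex IV and Ndufa6, Ndufa13 and Ndufb2 of complex I, with 0 of complexes II, III and V. Cox6a2 is in the higher counts at day 4 and day 6 against both ESCs and EpiLCs. It held 10 or more reads in 4 samples, all D4PGCLCs or D6PGCLCs, so it entered the set only through stages where it was high.

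**Figure D3:**
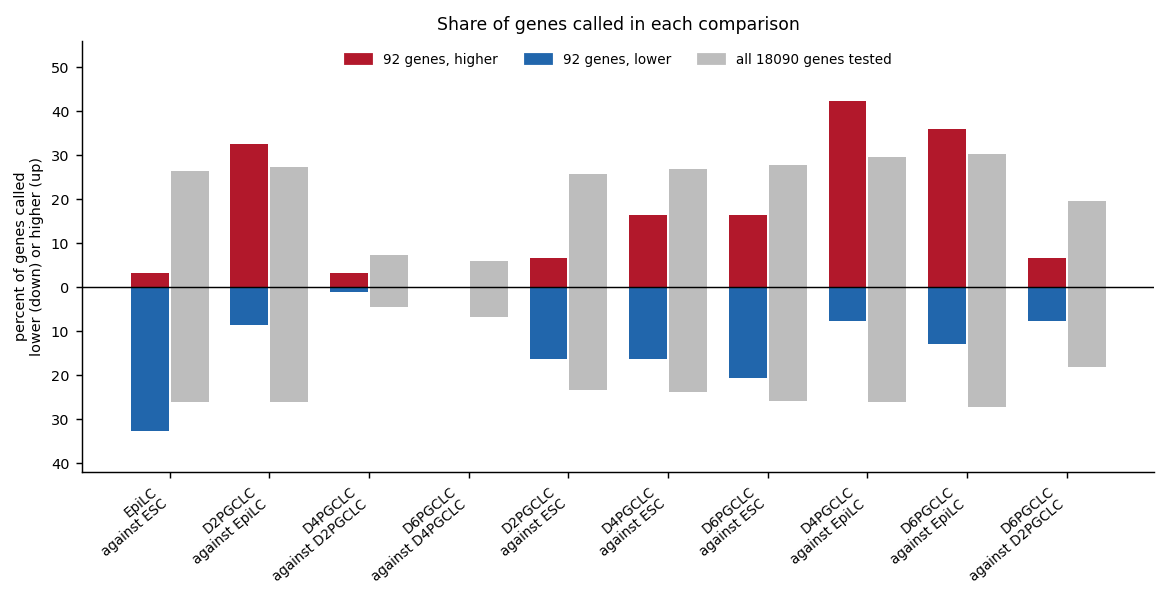
Percentage of genes called higher (above 0) or lower (below 0) at an adjusted p under 0.05 in each comparison (horizontal axis), for the 92 genes in colour and for all 18090 genes tested in grey. Higher calls among the 92 genes were 3 in EpiLCs against ESCs and 30 in D2PGCLCs against EpiLCs, and lower calls were 30 and 8.

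Complex I is built on a core inherited from bacteria, which holds the flavin and the iron-sulphur clusters, and on accessory subunits around it. Of its 36 genes, 5 were lower (26.0% of all genes tested) and 5 higher (27.7%) in D6PGCLCs than in ESCs. Ndufv2, which carries an iron-sulphur cluster of the NADH-oxidising arm, had CPM values of 167, 176 and 176 in the ESCs, 105, 109.6 and 112 in the EpiLCs, 99.1, 113 and 126 in the D2PGCLCs, 105, 117 and 124 in the D4PGCLCs and 95.2, 108 and 97.9 in the D6PGCLCs. Every ESC library lay above all 12 others, and the later stages overlapped one another. Its log2 fold change was -0.67 ± 0.089 (SE, adjusted p = 4.3e-06) in EpiLCs against ESCs and -0.79 ± 0.089 (SE, adjusted p = 5.9e-07) in D6PGCLCs against ESCs.

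Ndufv1, the flavin-binding neighbour of Ndufv2, was lowest in EpiLCs. Its CPM values were 205, 183 and 205 in the ESCs, 158, 136 and 137 in the EpiLCs, 173, 179 and 201 in the D2PGCLCs, 184, 189.9 and 205 in the D4PGCLCs and 179.9, 172 and 193 in the D6PGCLCs. EpiLCs lay below every other library, and ESCs and PGCLCs overlapped. It fell in EpiLCs by 0.46 ± 0.085 (SE, adjusted p = 0.00015) on the log2 scale and rose at day 2 by 0.36 ± 0.085 (SE, adjusted p = 0.0015).

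Ndufs1, the largest core subunit, fell from EpiLCs to D2PGCLCs. Its CPM values were 180.1, 187 and 185 in the ESCs, 198, 197 and 191 in the EpiLCs, 158, 163 and 170.1 in the D2PGCLCs, 161, 151 and 150.5 in the D4PGCLCs and 128, 141 and 149 in the D6PGCLCs. All 9 PGCLC libraries lay below all 6 ESC and EpiLC libraries, and EpiLCs lay above ESCs. Its log2 fold change in D2PGCLCs against EpiLCs was -0.26 ± 0.070 (SE, adjusted p = 0.0048), and in D6PGCLCs against ESCs -0.40 ± 0.070 (SE, adjusted p = 9.9e-05).

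Accessory subunits were among the genes called on both sides of EpiLCs. Ndufa13, also known as GRIM-19, had CPM values of 62.9, 49.6 and 52.9 in the ESCs, 32.7, 25.9 and 34.9 in the EpiLCs, 57, 50.4 and 63 in the D2PGCLCs, 70.3, 63 and 97.7 in the D4PGCLCs and 70.5, 67.8 and 85.1 in the D6PGCLCs. EpiLCs were the lowest group with no overlap, and D4PGCLCs and D6PGCLCs lay above all ESC libraries. It fell by 0.82 ± 0.15 (SE, adjusted p = 0.00017) in EpiLCs, rose by 0.87 ± 0.15 (SE, adjusted p = 9.9e-05) at day 2, and in D6PGCLCs stood 0.43 ± 0.15 (SE, adjusted p = 0.021) above ESCs on the log2 scale. Exons of Ndufa13 share 30.0% of their bases with Tssk6 on the opposite strand, and since no source used here gives the strand setting of the counting, reads of such pairs cannot be assigned with certainty. Ndufa6, a LYR-motif subunit, stood at 23.2 ± 0.253 CPM (SD, n = 3, as for the means that follow) in ESCs and 40.7 ± 7.34 CPM in D6PGCLCs, a log2 fold change of 0.81 ± 0.21 (SE, adjusted p = 0.0034). Ndufb10 went the other way, from 61.8 ± 4.8 CPM in ESCs to 39.95 ± 3.48 CPM in D2PGCLCs and 42.5 ± 9.07 CPM in D6PGCLCs, with -0.63 ± 0.17 (SE, adjusted p = 0.0041) at day 2 and -0.54 ± 0.17 (SE, adjusted p = 0.01) at day 6 against ESCs. Across the 92 genes 32 share exon bases with another gene, and 5 of them (Ndufb2, Ndufb8, Ndufb9, Atp5g2 and Atp5o) with a gene on the same strand, so the values of those are uncertain. Ndufb2 and Ndufb9 were low, at 2.24 and 4.15 CPM in ESCs.

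Assembly factors of complex I were spread between directions. Ndufaf4, needed for an early assembly step, had CPM values of 32.5, 34.1 and 33 in the ESCs, 34.5, 33.2 and 27.8 in the EpiLCs, 22.6, 28.6 and 26.7 in the D2PGCLCs, 20.4, 19.2 and 21.4 in the D4PGCLCs and 19.6, 21.3 and 21.4 in the D6PGCLCs. D4PGCLCs and D6PGCLCs lay below all ESC and EpiLC libraries. It was lower by 0.68 ± 0.11 (SE, adjusted p = 3.7e-05) in D6PGCLCs than in ESCs. Ndufaf3, a partner of Ndufaf4, peaked at day 2 with 15 ± 2.02 CPM against 8.93 ± 1.79 CPM in EpiLCs and 9.46 ± 0.0922 CPM in D6PGCLCs, a rise of 0.75 ± 0.18 (SE, adjusted p = 0.0021) and a fall of 0.67 ± 0.18 (SE, adjusted p = 0.0075). Exons of Ndufaf3 share 2.64% of their bases with Impdh2 on the opposite strand. Impdh2 had means of 339 CPM in EpiLCs, 533 CPM in D2PGCLCs and 427 CPM in D6PGCLCs, and its part in the Ndufaf3 values was not tested. Of the 7 complex I assembly factors named otherwise, 3 rose and 1 fell at day 2, where 27.2% and 26.0% of all genes did, and 2 were higher and 4 lower in D6PGCLCs than in ESCs, where 27.7% and 26.0% were.

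Complex II, which is also a citric acid cycle enzyme, has a catalytic flavoprotein (Sdha), an iron-sulphur subunit (Sdhb) and a membrane anchor pair (Sdhc and Sdhd). The anchor genes had different calls, and the difference between them was not tested. Sdhc had CPM values of 104, 104 and 95.4 in the ESCs, 64.2, 66.8 and 75.6 in the EpiLCs, 76.3, 88.2 and 87 in the D2PGCLCs, 86.2, 93.1 and 97.8 in the D4PGCLCs and 90.4, 95.7 and 82.3 in the D6PGCLCs. Sdhd had CPM values of 121, 108 and 114 in the ESCs, 128, 112 and 114 in the EpiLCs, 76.3, 93.2 and 88.1 in the D2PGCLCs, 76.5, 94.5 and 98.3 in the D4PGCLCs and 79.3, 80.8 and 74.3 in the D6PGCLCs. For Sdhc, EpiLCs lay below every other library, while for Sdhd the EpiLCs overlapped the ESCs and all PGCLC libraries lay below both. The log2 fold changes of Sdhc were -0.55 ± 0.088 (SE, adjusted p = 3.6e-05) in EpiLCs against ESCs and 0.28 ± 0.088 (SE, adjusted p = 0.011) in D2PGCLCs against EpiLCs. Those of Sdhd were 0.04 ± 0.098 (SE, adjusted p = 0.75) and -0.46 ± 0.098 (SE, adjusted p = 0.00069). Sdha fell in EpiLCs by 0.24 ± 0.064 (SE, adjusted p = 0.0039) and stood -0.27 ± 0.064 (SE, adjusted p = 0.0015) from ESCs in D6PGCLCs, at 395 ± 12.9 CPM in ESCs and 327 ± 2.38 CPM in D6PGCLCs. Sdhb went from 83.7 ± 1.23 CPM in ESCs to 69.1 ± 4.92 CPM in EpiLCs and 87.1 ± 8.7 CPM in D2PGCLCs, with -0.28 ± 0.087 (SE, adjusted p = 0.012) at the first step and 0.33 ± 0.087 (SE, adjusted p = 0.0033) at the second. The call of Sdhb at the first step was lost in 2 of the 15 fits that left out 1 library.

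Complex III showed few calls until day 6, when 4 of its 9 genes were lower than in ESCs (26.0% of all genes tested) and 0 higher (27.7%). Uqcrfs1, the Rieske iron-sulphur protein, had CPM values of 114, 99.4 and 97.9 in the ESCs, 116, 94.7 and 103 in the EpiLCs, 88.4, 102 and 101 in the D2PGCLCs, 79.8, 94.8 and 102 in the D4PGCLCs and 67.1, 83.3 and 74.6 in the D6PGCLCs. D6PGCLCs were the lowest group, overlapping D4PGCLCs and no ESC or EpiLC library. Its change in D6PGCLCs against ESCs was -0.47 ± 0.11 (SE, adjusted p = 0.0012). Uqcrh, the hinge protein that holds cytochrome c1, showed -0.52 ± 0.16 (SE, adjusted p = 0.011) and the core protein gene Uqcrc2 -0.28 ± 0.090 (SE, adjusted p = 0.013) in the same comparison. Uqcrb, a ubiquinone-binding subunit, fell in EpiLCs by 0.82 ± 0.14 (SE, adjusted p = 7.4e-05), rose at day 2 by 0.47 ± 0.14 (SE, adjusted p = 0.0095) and was also lower in D6PGCLCs than in ESCs, by 0.48 ± 0.14 (SE, adjusted p = 0.0075). Cyc1, the cytochrome c1 gene and the member of complex III with the highest level per length, was at 254 ± 17.7 CPM in ESCs and 235 ± 11.8 CPM in D6PGCLCs and passed the test in 0 of the 10 comparisons.

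Complex IV held the widest changes. Cox5a, a nuclear subunit next to the catalytic core, had CPM values of 99.3, 83.8 and 87.1 in the ESCs, 54.4, 43.8 and 58.9 in the EpiLCs, 113, 118 and 124 in the D2PGCLCs, 93.9, 105 and 138 in the D4PGCLCs and 106, 116 and 129 in the D6PGCLCs. EpiLCs lay below all other libraries, and most PGCLC libraries lay above the ESCs. It fell in EpiLCs by 0.78 ± 0.13 (SE, adjusted p = 4.9e-05), rose at day 2 by 1.18 ± 0.13 (SE, adjusted p = 4e-07) and stood 0.39 ± 0.13 (SE, adjusted p = 0.016) above ESCs at day 2. At later days its lead over ESCs was 0.32 ± 0.13 (SE, adjusted p = 0.046) and 0.37 ± 0.13 (SE, adjusted p = 0.019), and these 2 calls were lost in 5 and in 3 of the 15 fits without 1 library. The day 2 call against ESCs was lost in 2 of the 15 fits without 1 library.

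Cox4i1, the main isoform of the largest nuclear subunit, was at 420.2 ± 56.1 CPM in ESCs, 324 ± 55.9 CPM in EpiLCs and 514 ± 34.9 CPM in D2PGCLCs. It rose from EpiLCs to D2PGCLCs by 0.67 ± 0.15 (SE, adjusted p = 0.0012). The fall in EpiLCs, -0.38 ± 0.15 (SE, adjusted p = 0.047), was lost in 8 of 15 such fits. Per kilobase it was the highest of the 18 complex IV genes. Cox6a1 followed, with -0.61 ± 0.19 (SE, adjusted p = 0.011) in EpiLCs and 0.79 ± 0.19 (SE, adjusted p = 0.0018) at day 2. The first of these Cox6a1 calls was lost in 3 of the 15 fits.

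**Figure D4:**
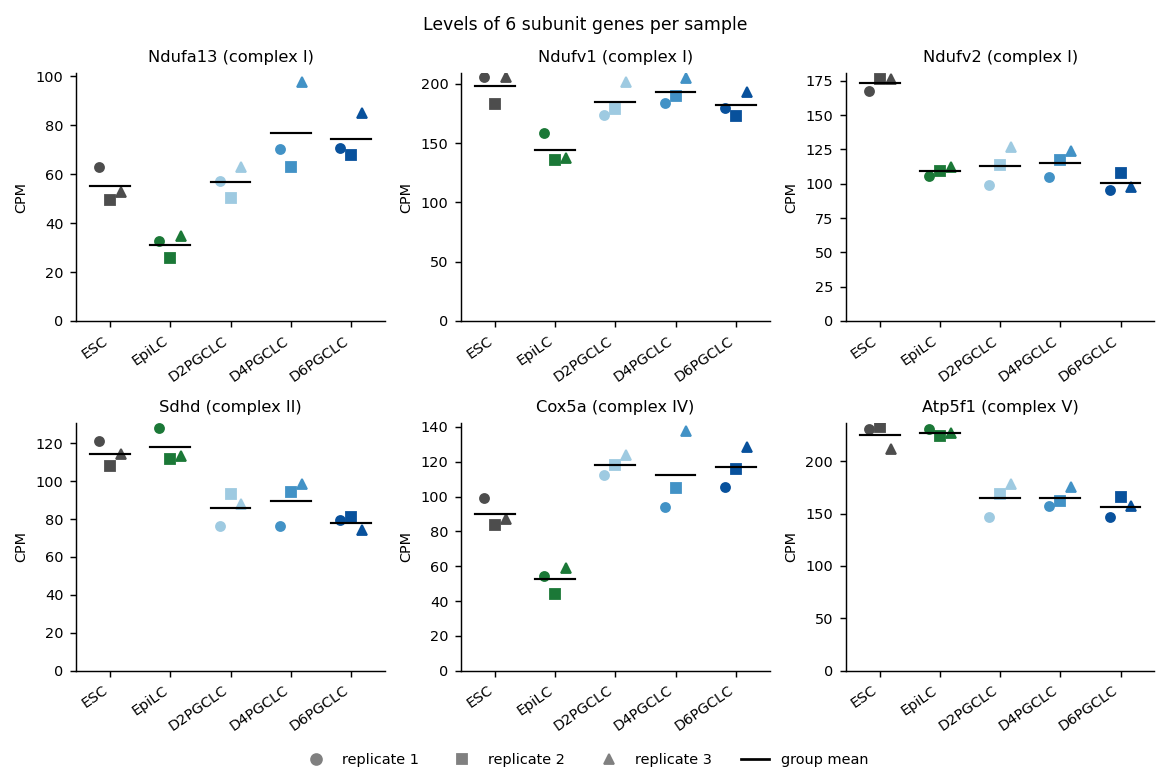
CPM (vertical axis) of 6 subunit genes by stage, with a point for each replicate and a line for the group mean. Ndufa13, Ndufv1 and Cox5a were lowest in EpiLCs and higher again at day 2, Ndufv2 was highest in ESCs, and Sdhd and Atp5f1 fell between EpiLCs and D2PGCLCs.

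Complex V, the ATP synthase, had genes called in both directions. Atp5b, the catalytic beta subunit and the gene with the highest level per length of its complex, stood at 2024 ± 71.9 CPM in ESCs, 1958 ± 32.9 CPM in EpiLCs and 2062 ± 50.6 CPM in D6PGCLCs, and of the 10 comparisons it passed only in D4PGCLCs against EpiLCs, at 0.17 ± 0.069 (SE, adjusted p = 0.047), a call lost in 7 of the 15 fits without 1 library. Its alpha partner Atp5a1 was at 1056 ± 24.9 CPM in ESCs, 1182 ± 31 CPM in EpiLCs and 878 ± 40.8 CPM in D6PGCLCs, with a fall of 0.43 ± 0.072 (SE, adjusted p = 4.8e-05) from EpiLCs to D6PGCLCs. Atp5f1, a subunit of the peripheral stalk, had CPM values of 230.4, 232 and 212 in the ESCs, 230.4, 224 and 227 in the EpiLCs, 147, 169 and 178 in the D2PGCLCs, 157, 162 and 175 in the D4PGCLCs and 146, 166 and 157 in the D6PGCLCs. ESCs and EpiLCs overlapped, and all 9 PGCLC libraries lay below them. Its change was -0.46 ± 0.081 (SE, adjusted p = 8.7e-05) in D2PGCLCs against EpiLCs and -0.52 ± 0.081 (SE, adjusted p = 2.5e-05) in D6PGCLCs against ESCs. Its exons share 8.21% of their bases with Wdr77 on the opposite strand. Atp5s had CPM values of 5.73, 4.17 and 5.66 in the ESCs, 4.17, 5.85 and 6.02 in the EpiLCs, 7.05, 6.06 and 8.46 in the D2PGCLCs, 9.28, 8.25 and 12.3 in the D4PGCLCs and 10.6, 9.27 and 11.2 in the D6PGCLCs, with D4PGCLCs and D6PGCLCs above all ESC and EpiLC libraries and 0.99 ± 0.20 (SE, adjusted p = 0.00036) in D6PGCLCs against ESCs. Atp5e, the epsilon subunit, was higher by 0.76 ± 0.26 (SE, adjusted p = 0.018) in D6PGCLCs than in ESCs, and Atp5o, the stalk subunit that confers oligomycin sensitivity, was lower by 0.70 ± 0.24 (SE, adjusted p = 0.022). Both calls were lost in some fits that left out 1 library, 2 of 15 for Atp5e and 3 of 15 for Atp5o.

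Paralogs that stand in for each other in complex IV changed their shares over the course. Cox6b1 and Cox6b2 encode the subunit at the dimer interface, and Cox6b2 is known from testis and sperm. Cox6b2 had CPM values of 21.2, 16.8 and 18.8 in the ESCs, 4.06, 3.75 and 6.38 in the EpiLCs, 23.7, 19.4 and 20.1 in the D2PGCLCs, 41.2, 33.4 and 74.8 in the D4PGCLCs and 43.2, 57.5 and 83.3 in the D6PGCLCs. EpiLCs were lowest, ESCs and D2PGCLCs overlapped, and D4PGCLCs and D6PGCLCs lay above all earlier libraries. The log2 fold changes were -2.00 ± 0.29 (SE, adjusted p = 1.1e-05) in EpiLCs against ESCs, 2.16 ± 0.29 (SE, adjusted p = 4.2e-06) in D2PGCLCs against EpiLCs, 1.24 ± 0.26 (SE, adjusted p = 0.0042) in D4PGCLCs against D2PGCLCs and 1.69 ± 0.26 (SE, adjusted p = 2.3e-05) in D6PGCLCs against ESCs. None of these calls was lost in any of the 15 fits without 1 library.

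Cox6b1, the form found in most tissues, was also lowest in EpiLCs. It stood at 76.5 ± 8.09 CPM in ESCs, 42.5 ± 6.71 CPM in EpiLCs and 59.8 ± 4.45 CPM at day 2, with a fall of 0.85 ± 0.16 (SE, adjusted p = 0.00017) and then a rise of 0.49 ± 0.16 (SE, adjusted p = 0.013). That rise was lost in 1 of the 15 fits without 1 library. At day 4 it was at 59.1 ± 16.1 CPM and at day 6 at 51.4 ± 6.47 CPM, -0.57 ± 0.16 (SE, adjusted p = 0.0045) against ESCs. Per kilobase, the percentage of Cox6b2 in the sum of the pair was 13.7, 12.9 and 14.4 in the ESCs, 5.17, 6.43 and 8.3 in the EpiLCs, 21.3, 16.1 and 17.9 in the D2PGCLCs, 36.7, 27.9 and 38.4 in the D4PGCLCs and 38.6, 39.8 and 49.3 in the D6PGCLCs. The share thus went from a mean of 13.6% in ESCs to 42.6% in D6PGCLCs, and every D4PGCLC and D6PGCLC library lay above every other one. On read counts not divided by length, the mean share of Cox6b2 was 19.8% in ESCs, 10.0% in EpiLCs and 26.1% in D2PGCLCs. It was 44.9% in D4PGCLCs and 53.6% in D6PGCLCs on that scale, so which form was the larger at day 6 depends on the scale.

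Cox7a1 is the form of its subunit known from heart and skeletal muscle, and Cox7a2 is the form of other tissues. The CPM values of Cox7a1 were 7.37, 6.53 and 5.36 in the ESCs, 2.03, 2.07 and 3.71 in the EpiLCs, 2.85, 5.41 and 3.39 in the D2PGCLCs, 5.25, 7.59 and 9.65 in the D4PGCLCs and 6.78, 11.5 and 13.8 in the D6PGCLCs. EpiLCs lay below all ESC libraries, and D6PGCLCs overlapped ESCs and D4PGCLCs. It fell in EpiLCs by 1.30 ± 0.32 (SE, adjusted p = 0.002), and it was higher by 1.46 ± 0.30 (SE, adjusted p = 0.00094) in D6PGCLCs than in D2PGCLCs. Its rise between day 2 and day 4 was 0.96 ± 0.30 (SE, adjusted p = 0.047) and was lost in 10 of the 15 fits. Its share of the pair per kilobase had means of 20.1% in ESCs and 9.59% in EpiLCs, and means over the PGCLC days of 12.6% (day 2), 21.3% (day 4) and 29.1% (day 6). On read counts not divided by length these means were 12.5%, 5.68%, 7.58%, 13.3% and 18.9%, over 1.5 times lower. Cox7a2 had 44.9 ± 1.88 CPM in ESCs and 44.8 ± 10.0 CPM in D6PGCLCs.

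Cox7b2, a second testis form, had the opposite course around EpiLCs at a low level. Its CPM values were 0.912, 0.877 and 0.838 in the ESCs, 2.33, 2.14 and 2.31 in the EpiLCs, 0.306, 0.502 and 0.66 in the D2PGCLCs, 1.73, 1.33 and 1.92 in the D4PGCLCs and 0.736, 1.76 and 2.78 in the D6PGCLCs, on 10 to 98 reads a library. EpiLCs lay above ESCs and D2PGCLCs, and D2PGCLCs were the lowest group. The changes were 1.36 ± 0.41 (SE, adjusted p = 0.0091) in EpiLCs against ESCs, -2.20 ± 0.43 (SE, adjusted p = 0.00027) in D2PGCLCs against EpiLCs and 1.75 ± 0.43 (SE, adjusted p = 0.012) in D4PGCLCs against D2PGCLCs. The last of these calls was lost in 1 of the 15 fits without 1 library.

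Ndufa4l2, a hypoxia-induced relative of the complex IV subunit Ndufa4, was lower in PGCLCs than in ESCs. Its CPM values were 12.1, 10.9 and 10.8 in the ESCs, 4.4, 4.41 and 4.04 in the EpiLCs, 0.214, 2.19 and 0.12 in the D2PGCLCs, 1.06, 4.76 and 0.258 in the D4PGCLCs and 0.578, 2.11 and 0.227 in the D6PGCLCs. ESCs lay above all other libraries, and within each PGCLC day replicate 2 was the highest. In EpiLCs against ESCs it did not pass the test, at -1.40 ± 0.74 (SE, adjusted p = 0.13). It was lower by 3.80 ± 0.86 (SE, adjusted p = 0.0012) in D2PGCLCs and by 3.49 ± 0.82 (SE, adjusted p = 0.0015) in D6PGCLCs than in ESCs. Shmt2 on the opposite strand shares 2.92% of the exon bases of Ndufa4l2, and its part in these values was not tested.

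Cox6a2, another muscle form, had 0 reads in all 6 ESC and EpiLC libraries. The D2PGCLC libraries held 7, 0 and 3 reads, the D4PGCLC libraries 12, 7 and 28 and the D6PGCLC libraries 55, 0 and 27. No fold is given for it, since the fitted value depends on the prior count, and D6PGCLC replicate 2 overlapped the stages at 0. Cox4i2, the minor isoform of the largest nuclear subunit, held 0 to 27 reads a library and took at most 0.337% of its pair, and Cox8a took at least 99.4% of the Cox8 genes.

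The c-ring subunit of ATP synthase is made by 3 genes with the same mature protein, Atp5g1, Atp5g2 and Atp5g3. CPM of Atp5g3 was 268, 276 and 246 in the ESCs, 222, 196 and 219 in the EpiLCs, 172, 196 and 195 in the D2PGCLCs, 144, 166 and 178 in the D4PGCLCs and 159.7, 176 and 175 in the D6PGCLCs. It was highest in ESCs, and all PGCLC libraries lay below all ESC libraries. Atp5g3 fell in EpiLCs by 0.31 ± 0.088 (SE, adjusted p = 0.0059) and stood -0.63 ± 0.088 (SE, adjusted p = 8.1e-06) from ESCs in D6PGCLCs, while Atp5g2 was higher than in ESCs by 0.49 ± 0.13 (SE, adjusted p = 0.0038) at day 2. Per kilobase, Atp5g3 took 61.8% of the 3 genes' sum in ESCs, 56.9% in EpiLCs and 48.0% in D6PGCLCs, and Atp5g2 took 20.4%, 27.2% and 31.5%. On read counts not divided by length Atp5g2 took 13.3%, 18.4% and 20.4%. Processed pseudogenes with these prefixes numbered 12 in the table, and how the counting treated reads that match both a gene and a copy is not given in the sources used here.

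**Figure D5:**
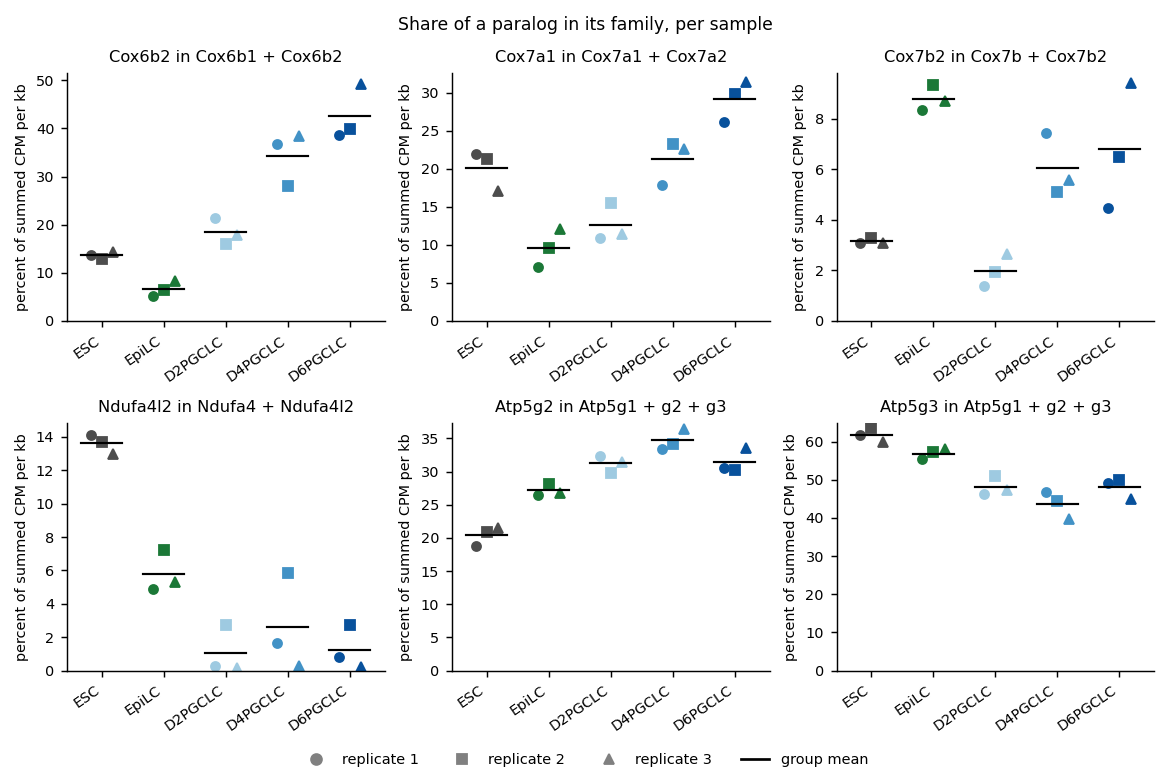
Share of a paralog in the summed CPM per kb of its family (vertical axis, percent) by stage, with a point for each replicate and a line for the group mean. Cox6b2 and Cox7a1 were lowest in EpiLCs and highest in D6PGCLCs, at means of 42.6% and 29.1%, and Atp5g3 went from 61.8% in ESCs to 48.0% in D6PGCLCs.

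Promoters of the Cox6b and Cox7a pairs are shown because shares within these pairs differed between stages, a choice made after their values were seen. The sequences are the 250 bases before each RefSeq transcription start in GRCm38.p6, read 5′ to 3′ on the strand of the gene, at chr7:30626115-30626364 (minus strand), chr7:4753095-4753344 (minus), chr7:30183921-30184170 (plus) and chr9:79759854-79760103 (minus), and capitals mark matches to the motifs named in the next paragraph.
Cox6b1: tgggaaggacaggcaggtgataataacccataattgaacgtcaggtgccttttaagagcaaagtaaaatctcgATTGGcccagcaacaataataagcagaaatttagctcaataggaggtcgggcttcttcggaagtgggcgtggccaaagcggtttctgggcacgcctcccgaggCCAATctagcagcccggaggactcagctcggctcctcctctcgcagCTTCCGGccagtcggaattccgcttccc
Cox6b2: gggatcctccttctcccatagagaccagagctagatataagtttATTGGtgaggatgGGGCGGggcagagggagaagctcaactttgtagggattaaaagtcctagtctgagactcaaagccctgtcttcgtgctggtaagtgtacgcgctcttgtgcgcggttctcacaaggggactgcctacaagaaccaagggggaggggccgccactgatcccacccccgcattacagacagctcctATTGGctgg
Cox7a1: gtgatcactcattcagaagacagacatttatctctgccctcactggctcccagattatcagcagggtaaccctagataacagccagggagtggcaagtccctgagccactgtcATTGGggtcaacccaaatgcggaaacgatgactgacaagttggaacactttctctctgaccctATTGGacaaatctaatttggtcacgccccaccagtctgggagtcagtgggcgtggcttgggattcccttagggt
Cox7a2: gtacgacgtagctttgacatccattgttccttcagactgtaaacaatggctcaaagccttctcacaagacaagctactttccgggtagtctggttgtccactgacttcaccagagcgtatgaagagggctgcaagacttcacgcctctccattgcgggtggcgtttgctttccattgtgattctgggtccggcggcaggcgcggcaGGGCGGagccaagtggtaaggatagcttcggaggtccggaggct

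In the 300-base window that adds the first 50 transcribed bases, Cox6b1 held 17 CpG dinucleotides and Cox6b2 10, an observed to expected ratio of 0.807 and 0.432. Cox7a2 held 20 and Cox7a1 7, a ratio of 0.833 and 0.333. The median ratio was 0.831 over 80 windows of the set and 0.567 over protein-coding windows. An ETS motif (CCGGAAG) was matched in Cox6b1 and not in the other windows, an SP1 motif (GGGCGG) in Cox6b2 and Cox7a2, and a CCAAT box in all but Cox7a2.

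Windows were found for 75 of the 92 genes (80 windows, some genes having more than 1), and both strands were searched. The NRF1 motif, of a factor known for respiratory genes, was in 20 of these 80 windows, against 4.6% of all 32851 windows and 6.38% of protein-coding ones. Motifs of the other classical regulators were in 22.5% for ETS (8.86% of all windows and 11.6% of protein-coding ones) and in 15.0% for YY1 (AAGATGG; 6.34% and 6.24%). The cAMP response element TGACGTCA was in 5.0% (1.79% of all windows), and the estrogen-related receptor motif TCAAGGTCA in 2.5% (0.423%). SP1 and CCAAT matches, in 45.0% and 43.8%, lay near their shares of 46.2% and 38.2% in protein-coding windows. The shares differed by complex. NRF1 matches ran from 1 of 13 windows in complex IV (7.69%) to 2 of 3 in complex II. ETS matches ran from 4 of 34 windows in complex I (11.8%) to 2 of 3 in complex II. A match is a string of letters and was not tested for binding.

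The 13 subunits encoded in mitochondrial DNA belong to the same complexes, and their difference from the nuclear genes was not tested. In EpiLCs against ESCs, 2 were higher and 3 lower (26.3% and 26.2% of all genes tested) with a median log2 fold change of -0.15. Against EpiLCs, 7 were higher and 0 lower in D2PGCLCs (27.2% and 26.0%) with a median of 0.72, and against ESCs 8 were higher and 1 lower (25.6% and 23.4%). Between day 2 and day 6, 8 fell and 0 rose (18.2% and 19.5%). The 13 genes took in mt-Atp8, mt-Nd3 and mt-Nd4l, whose stage means lay between 0.0714 and 0.522 CPM, so few reads entered their folds. mt-Cytb, the cytochrome b of complex III, was at 2629 ± 329 CPM in ESCs, 2250 ± 312 CPM in EpiLCs, 4716 ± 488 CPM in D2PGCLCs and 3167 ± 90.4 CPM in D6PGCLCs, with 1.07 ± 0.12 (SE, adjusted p = 4.1e-07) at day 2 against EpiLCs. mt-Co1, the catalytic subunit of complex IV, was at 8849 ± 1047 CPM in ESCs and 6796 ± 762 CPM in EpiLCs, a change of -0.38 ± 0.12 (SE, adjusted p = 0.0093), and at 5341 ± 694 CPM in D6PGCLCs. The table gave mt-Co2 at 8.46 ± 1.34 CPM in ESCs and mt-Atp6 at 1.82 ± 0.792 CPM, well below mt-Co1, and how reads of the mitochondrial genome and its nuclear copies were counted is not given in the sources used here. Transcripts of cytochrome c (Cycs), the carrier between complexes III and IV, and of the ATP synthase inhibitor Atpif1 gave 0 calls in the steps from ESCs to EpiLCs and on to D2PGCLCs. Over the 10 comparisons Atpif1 had 0 calls, and Cycs was higher than in ESCs at day 2, by 0.25 ± 0.099 (SE, adjusted p = 0.043), and at day 4, by 0.24 ± 0.099 (SE, adjusted p = 0.048).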

How the data were processed

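RNA-seq of 15 samples was analysed, 3 in each of 5 groups taken from the sample labels. The authors deposited 1 table of raw read counts per Ensembl gene, not normalized. Per the labels, libraries were made with a directional kit, and the submitters' processing notes name Trim Galore, FastQC, STAR and mm10; versions, the counter, its strand setting and its rule for reads with several matches are not given in the sources used here. Genes were named from GENCODE M21 (GRCm38). The 92 genes and all other lists were chosen with earlier results of these data known. From the counts, edgeR 4.0.16 in R 4.3.3 gave TMM-normalized CPM and quasi-likelihood tests on all 15 samples with 5 group means, after filterByExpr with a minimum count of 10, which kept 18090 genes. P-values were adjusted by Benjamini-Hochberg over those genes within each of 10 comparisons, and a gene was called at an adjusted p under 0.05. Levels were compared between genes as CPM per kilobase of merged exons. Genes named in the text were the catalytic or core subunits and the paralogs of each complex and, in each comparison, the 4 members with the highest and the 4 with the lowest log2 fold change among called members whose replicates did not overlap; other called members are given as examples of their complex and were chosen after their values were seen. Alternatives were DESeq2 1.42.0, its size factors, upper-quartile scaling, no filter, a replicate block, fits of only the 2 groups, a log2 fold cutoff of 1, read counts not divided by length for the paralog shares, library totals for the sums and leaving out each sample. Same-numbered D2PGCLC and D4PGCLC libraries correlated in their deviations from the group means (0.102 to 0.159 over 3 pairs, against -0.152 to -0.003 over 6 others), a pairing taken from the data and not from the labels. The steps were tested on simulated counts. Library depth limits genes of few reads, and 3 reads were taken as the limit that a count of 0 allows. Part of the results is not reported here.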

Additional observations from a re-analysis of the deposited data

How the results depend on the processing

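DESeq2 kept all 20 counts of called genes within 1.5 times of edgeR's. A log2 fold cutoff of 1, which keeps fewer genes by construction, left 1 higher and 4 lower in EpiLCs against ESCs, 2 and 2 in D2PGCLCs against EpiLCs, 0 lower in D4PGCLCs against D2PGCLCs, 0 and 2 in D2PGCLCs against ESCs, 2 and 2 in D4PGCLCs against ESCs, 3 and 1 in D6PGCLCs against ESCs, 6 and 0 in D4PGCLCs against EpiLCs, 7 and 1 in D6PGCLCs against EpiLCs, and 0 lower in D6PGCLCs against D2PGCLCs. The higher count in EpiLCs against ESCs was 5 with DESeq2 size factors, 5 with upper-quartile scaling and 6 with only the 2 groups. Upper-quartile scaling gave 16 higher in D2PGCLCs against EpiLCs and 4 lower in D6PGCLCs against D2PGCLCs. Without the filter, D4PGCLCs against D2PGCLCs had 9 higher and 0 lower, D6PGCLCs against D4PGCLCs 3 lower, D2PGCLCs against ESCs 15 higher and D6PGCLCs against D2PGCLCs 12 higher. With only the 2 groups, D4PGCLCs against D2PGCLCs had 0 lower, D2PGCLCs against ESCs 17 higher and D6PGCLCs against D2PGCLCs 4 lower. Apart from the fold cutoff, the cause of these shifts was not tested, and the shares of all genes called in these fits are not given.

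Leaving out 1 library at a time, higher and lower counts ranged from 1 to 4 and 18 to 31 in EpiLCs against ESCs, 15 to 34 and 5 to 8 in D2PGCLCs against EpiLCs, 1 to 5 and 0 to 1 in D4PGCLCs against D2PGCLCs, 0 to 0 and 0 to 3 in D6PGCLCs against D4PGCLCs, 4 to 12 and 9 to 18 in D2PGCLCs against ESCs, 7 to 26 and 11 to 16 in D4PGCLCs against ESCs, 5 to 22 and 14 to 21 in D6PGCLCs against ESCs, 24 to 48 and 6 to 8 in D4PGCLCs against EpiLCs, 22 to 41 and 9 to 12 in D6PGCLCs against EpiLCs, and 3 to 7 and 3 to 9 in D6PGCLCs against D2PGCLCs. Of 135 calls checked, 90 were kept in all 15 such fits, 45 were lost in at least 1, and 0 changed direction. Those 135 were calls of the chosen core subunits and paralogs and of the 4 highest and 4 lowest members in each comparison. Calls given in the text as examples of their complex, such as those of Sdhc, Uqcrb and Uqcrc2, were not in this check.

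Outside D2PGCLCs and D4PGCLCs the replicate numbers were not taken to pair the samples: over all 30 same-numbered pairs the mean correlation of deviations was 0.0358, against -0.0179 over 60 other pairs, and the 6 above 0.1 were all between PGCLC days. Same-numbered D6PGCLC libraries ranged from -0.0029 to 0.208 with D4PGCLCs and from 0.0146 to 0.178 with D2PGCLCs. A pairing of D6PGCLCs is thus not excluded. A fit with the replicate block gave a higher count of 5 in D4PGCLCs against D2PGCLCs, and the other 19 counts stayed within 1.5 times. With read counts in place of counts per kilobase, 53 of 90 paralog shares moved by more than the spread between replicates.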

Other observations

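Lists of genes around the complexes are given by their counts beside the shares of all genes tested. Of 32 tested assembly factors of complexes II to V, 12 were lower (26.2% of all genes) and 3 higher (26.3%) in EpiLCs than in ESCs, with a median log2 fold change of -0.16, while D2PGCLCs against EpiLCs had 7 higher (27.2%) and 3 lower (26.0%). Of 77 tested mitochondrial ribosomal protein genes, which make the proteins encoded in mitochondrial DNA, 7 were lower and 16 higher in EpiLCs than in ESCs, and 30 were lower (27.2% of all genes) and 12 higher (30.2%) in D6PGCLCs than in EpiLCs, with a median of -0.18. Of 17 citric acid cycle enzyme genes, 6 were higher and 5 lower in EpiLCs than in ESCs (26.3% and 26.2% of all genes).

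Regulators of mitochondrial genes split by gene. Esrrb, an estrogen-related receptor of naive cells, was at 590.2 ± 9.16 CPM (SD, n = 3) in ESCs, 66.9 ± 4.62 CPM in EpiLCs, 619.7 ± 36.9 CPM in D2PGCLCs and 409.5 ± 16.8 CPM in D6PGCLCs, with an edgeR log2 fold change of -3.14 ± 0.085 (SE, adjusted p = 2.2e-15) in EpiLCs against ESCs and 3.21 ± 0.085 (SE, adjusted p = 4.2e-15) in D2PGCLCs against EpiLCs. Its relative Esrra stayed between 24.5 ± 3.24 CPM in EpiLCs and 31.3 ± 1.63 CPM in D6PGCLCs. The coactivator gene Ppargc1b fell from 6.06 ± 0.575 CPM in EpiLCs to 1.3 ± 0.516 CPM in D2PGCLCs, a change of -2.22 ± 0.27 (SE, adjusted p = 1.4e-06). Tfam, which packages and transcribes mitochondrial DNA, rose in EpiLCs by 0.52 ± 0.080 (SE, adjusted p = 2e-05) and was at 124 ± 7.01 CPM in ESCs, 178 ± 1.88 CPM in EpiLCs, 172 ± 13.8 CPM in D2PGCLCs and 118 ± 9.79 CPM in D6PGCLCs. Nrf1, whose motif was searched in the promoters, was at 107 ± 4.07 CPM in ESCs and 89.6 ± 2.36 CPM in D6PGCLCs and changed by -0.25 ± 0.080 (SE, adjusted p = 0.013).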
